A study of Mus musculus with 36 samples.

Results

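The genes described here are 9 smooth muscle and mural cell genes of mouse epididymal white adipose tissue (eWAT): *Actg2*, *Cnn1*, *Pcp4*, *Acta2*, *Myh11*, *Tagln*, *Des*, *Smtn* and *Notch3*. They are 9 of the 24750 genes in the expression table, and each was found as the row whose Ensembl identifier carries its symbol. The set was selected on measured levels of *Actg2*, *Cnn1* and *Notch3*, which were higher with the knock-in among mice carrying ligatures, so values of that contrast are given here as a description, with no test. All 9 were detected, and all 9 passed the filter on low values, a level of at least 1 CPM (reads counted per gene, scaled to library size) in at least 3 libraries.

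RNA from the eWAT of 36 male mice was sequenced, with 1 library per mouse and 3 mice in each of 12 groups. WT mice were C57BL/6, and CCL19-KI mice were a homozygous line in which murine *Ccl19* had been inserted at the *Adipoq* locus, so that the adipocyte promoter of *Adipoq* drives it. Mice of either genotype received a normal diet (ND), a 40% fat diet (40% HFD) or a 60% fat diet (60% HFD) from 6 weeks of age. From 14 weeks of age, 3 mice of each genotype and diet carried silk ligatures on the upper second molars (ligature-induced periodontitis, LIP) and 3 did not, and all tissue was taken at 16 weeks. The study's methods and its GEO design text speak of the sequenced mice as ligatured, whereas the sample labels set mice with LIP apart from mice on diet only. The labels were followed, so every tested contrast rests on them. CCL19-KI and WT mice were bred as separate lines rather than as littermates, so line and genotype cannot be told apart.

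Smooth muscle cells of vessel walls and hollow organs contract through actin and myosin filaments that are switched on by calcium. Mural cells, which include arterial smooth muscle and the pericytes of small vessels, sit on the outside of the endothelium, and in fat they follow the dense capillary net between adipocytes. *Actg2* encodes the actin typical of visceral smooth muscle, *Acta2* that of vascular smooth muscle, and *Myh11* the smooth muscle myosin heavy chain. *Cnn1* (calponin) and *Tagln* (transgelin, SM22-alpha) bind actin, *Smtn* (smoothelin) marks contractile cells, and *Des* (desmin) builds intermediate filaments of all muscle types. *Pcp4* encodes a small calmodulin-binding protein that is also found in neurons. *Notch3* is the Notch receptor of mural cells, which is activated by ligands such as Jag1 on neighbouring cells. In whole tissue, fewer cells of a type and less RNA per cell cannot be told apart.

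Contractile genes are classically read through CArG boxes, short sequences bound by serum response factor, and promoter sequence is shown for the members in which a CArG-like element was found beside 1 in which none was. The 250 bases before the RefSeq start (GRCm38.p6) were available for 6 of the 9 members, *Acta2*, *Cnn1*, *Des*, *Notch3*, *Pcp4* and *Smtn*. A perfect CArG box, searched on both strands, was in 0 of the 6 and in 1.47% of 32851 promoters of the same length. With 1 mismatch allowed it was in 2 of the 6, *Acta2* and *Pcp4*, and in 18.6% of all promoters. The stretches of *Acta2* lie on the minus strand at chr19:34255438-34255467 and chr19:34255388-34255417, with elements 84 and 34 bases before the start, and that of *Pcp4* on the plus strand at chr16:96467356-96467605, with its element 107 bases before the start. Both *Acta2* elements and the whole *Smtn* window lie inside the gene intervals given below, since the annotations used place the start differently. Capitals mark the CArG-like elements.
Acta2 first element: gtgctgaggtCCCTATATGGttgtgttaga
Acta2 second element: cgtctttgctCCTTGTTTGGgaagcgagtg
Pcp4 promoter: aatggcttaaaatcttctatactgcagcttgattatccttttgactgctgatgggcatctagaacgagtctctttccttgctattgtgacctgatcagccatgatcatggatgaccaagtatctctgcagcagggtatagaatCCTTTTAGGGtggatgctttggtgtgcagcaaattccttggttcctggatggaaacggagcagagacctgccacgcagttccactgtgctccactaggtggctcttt
Cnn1, no element, plus strand at chr9:22099003-22099215, up to the annotated first exon: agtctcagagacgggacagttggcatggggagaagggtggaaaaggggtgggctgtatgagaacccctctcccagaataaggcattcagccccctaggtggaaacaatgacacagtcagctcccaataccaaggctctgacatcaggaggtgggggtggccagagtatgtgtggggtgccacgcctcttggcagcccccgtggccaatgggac

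Further short motifs were searched on both strands of the same windows. GGAATG, the core letters bound by TEAD factors, was in the *Acta2* and *Smtn* windows and in 12.6% of all promoters. TGGGAA, the core letters bound by the Notch partner RBPJ, was in the *Acta2* and *Smtn* windows as well and in 21.6% of all promoters, and it runs across the 3′ end of the second *Acta2* element printed above. These matches describe letters and not bound sites.

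Sequencing depth was 11962228 to 21581595 reads per library (median 15573273), so that 1 read equalled 0.0472 to 0.0834 CPM and the limit set by a count of 0 (3 reads) was 0.142 to 0.2502 CPM. Knock-in transcripts went against the label in 2 unligatured libraries. In the library labelled WT ND replicate 2, *Ccl19* was at 19.2 CPM and *Gm2564*, a gene model that was high in CCL19-KI and at 0 in most WT libraries, at 41.9 CPM, against 0.826 to 4.51 and 0 CPM in the other 8 unligatured WT libraries. In the library labelled CCL19-KI 60% HFD replicate 3 they were at 0.687 and 0 CPM, against 5.57 to 27.5 and 11.6 to 57.6 CPM in the other 8 unligatured CCL19-KI libraries. Labels were kept, and values without these libraries stand beside the results they moved. Adipocyte markers were abundant everywhere, with a summed level of 8 markers between 4075 and 22122 CPM, but markers of epididymal epithelium (13 genes) summed to 0.0707 to 13236 CPM and those of hepatocytes (9 genes) to 9.80 to 35245 CPM.

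Per kilobase of exon, the order of the median levels over all 36 libraries was *Acta2* (66.5 CPM per kb), *Tagln* (10.5), *Smtn* (5.46), *Des* (4.40), *Notch3* (1.17), *Myh11* (1.12), *Actg2* (0.396), *Cnn1* (0.213) and *Pcp4* (0). The ranges of neighbours in this order overlapped throughout. Levels of *Actg2* spanned 0 to 469 CPM per kb, those of *Notch3* 0.297 to 6.87 CPM per kb. *Acta2* was never under 28.2 CPM per kb, whereas *Actg2*, *Cnn1* and *Pcp4* were each at 0 in at least 1 library.

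*Actg2*, the visceral smooth muscle actin (ENSMUSG00000059430, chr6:83512905-83536265, minus strand, GRCm38), was either near 0 or high. In unligatured WT mice it was at 0.163, 492 and 3.00 CPM under ND, 0.901, 86.2 and 0.606 CPM under 40% HFD, and 0, 0.0834 and 0.154 CPM under 60% HFD. In unligatured CCL19-KI mice it was at 0.0944, 62.1 and 0.177 CPM under ND, 0.668, 0.134 and 0.627 CPM under 40% HFD, and 145, 577 and 69.9 CPM under 60% HFD. One mouse in 3 was high in each of the WT ND, CCL19-KI ND and WT 40% HFD groups, and all 3 were high in the CCL19-KI 60% HFD group. Ligatured WT mice had 0.138, 0.101 and 1.55 CPM under ND, 35.5, 0.949 and 1.20 CPM under 40% HFD, and 0, 0.241 and 0.253 CPM under 60% HFD. Ligatured CCL19-KI mice had 730, 449 and 1.65 CPM under ND, 0.1504, 0.212 and 0.146 CPM under 40% HFD, and 0.441, 0.0555 and 2.24 CPM under 60% HFD. In all, 9 libraries were at 35.5 CPM or more and 27 at 3.00 CPM or less, with none between, and the library labelled WT ND replicate 2 and that labelled CCL19-KI 60% HFD replicate 3 were among the 9.

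**Figure D1:**
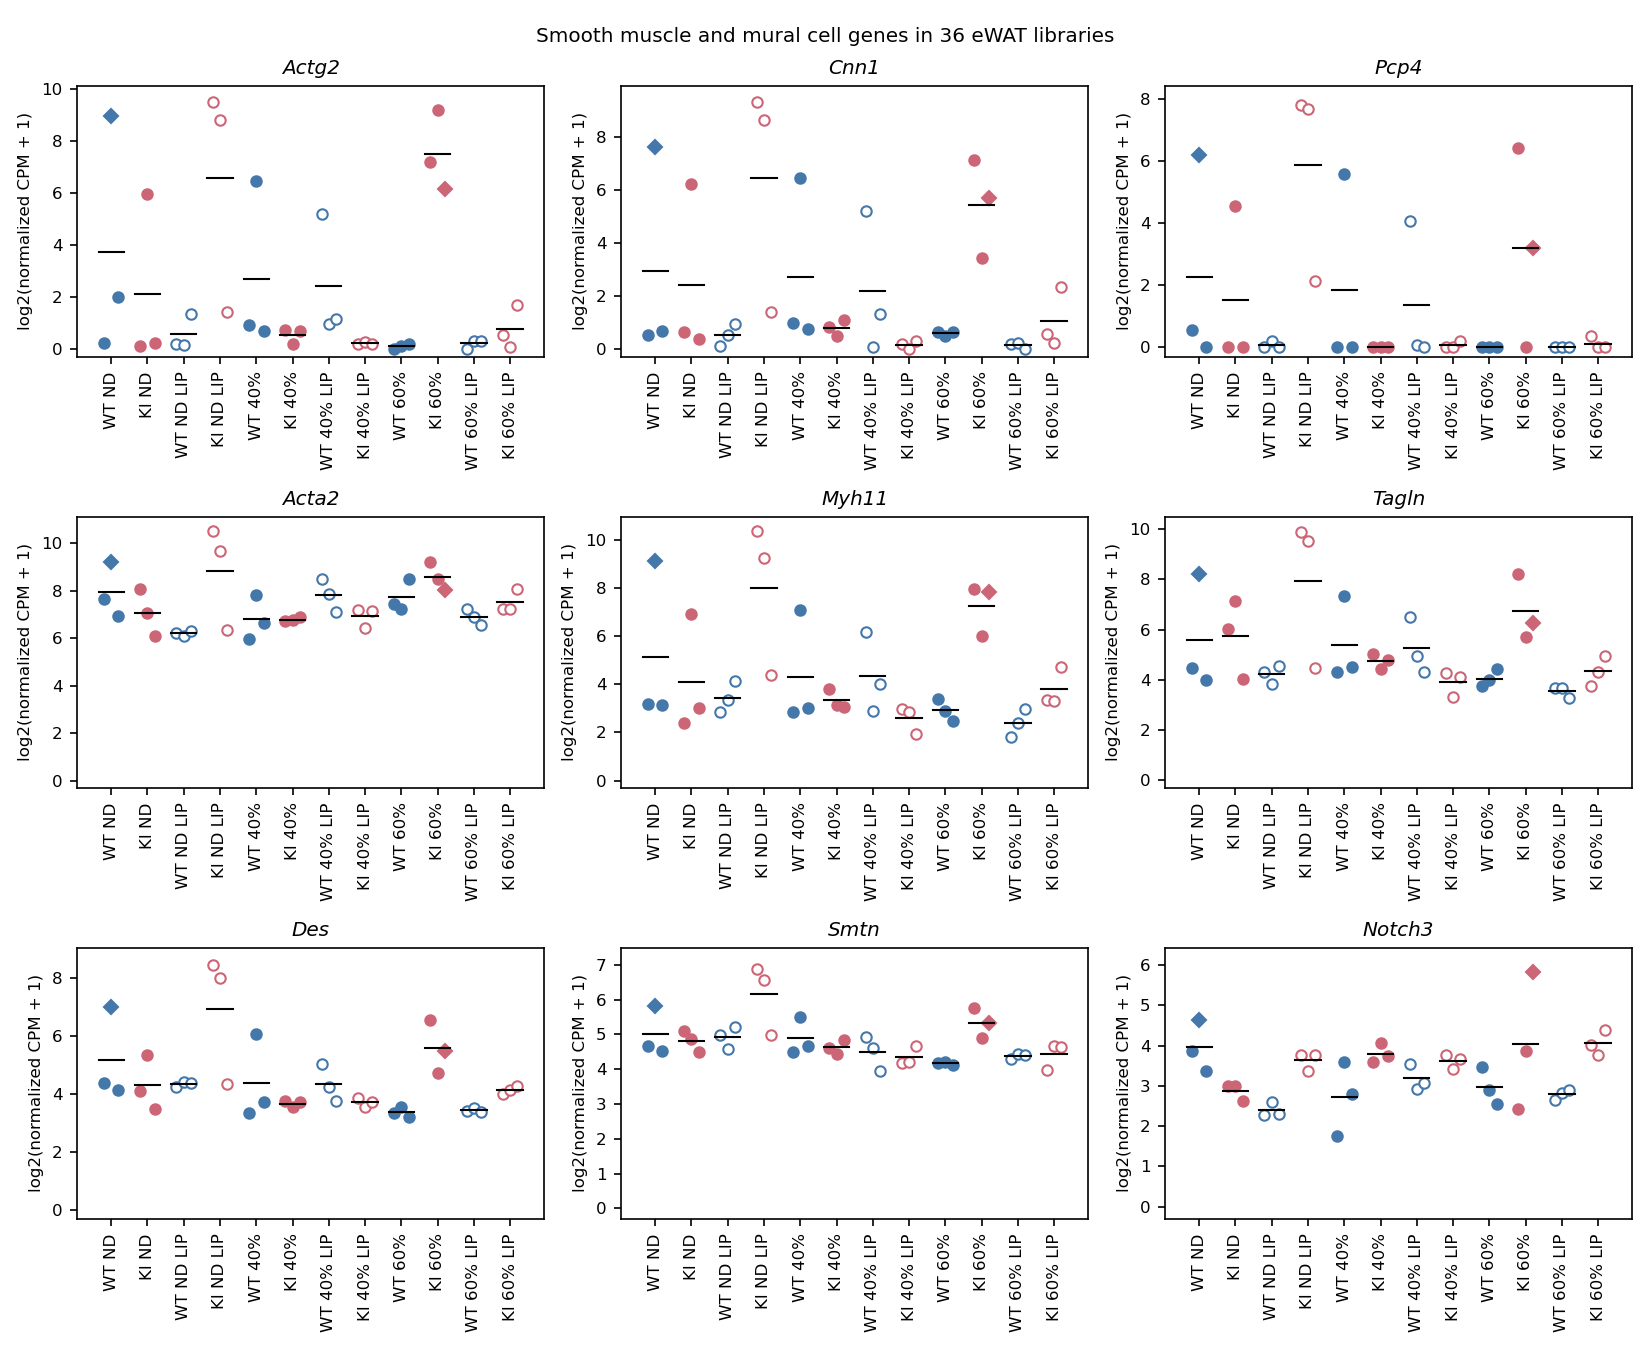
Levels of the 9 genes in each of the 36 libraries, as log2 (normalised CPM + 1) on the vertical axes, by group on the horizontal axes. Blue points are WT, red points CCL19-KI, filled points without and open points with LIP, diamonds are the 2 libraries whose knock-in transcripts went against the label, and a black bar is the mean of the 3 log2 values; *Actg2* and *Myh11* separate the same 9 libraries from the other 27.

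*Myh11*, the smooth muscle myosin heavy chain (ENSMUSG00000018830, chr16:14194535-14291372, minus strand), separated the same 9 libraries, at 63.2 CPM or more against 25.2 CPM or less elsewhere. Its highest level, 1310 CPM, was in the ligatured CCL19-KI ND replicate 1, which also had the highest *Actg2*. In the unligatured CCL19-KI 60% HFD group it was at 251.1, 63.2 and 226 CPM, and in the matching WT group at 9.39, 6.34 and 4.61 CPM. These groups did not overlap. Unligatured ND mice were at 8.16, 562 and 7.75 CPM (WT) and 4.29, 119 and 7.13 CPM (CCL19-KI), with 1 high library in each.

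*Cnn1*, calponin (ENSMUSG00000001349, chr9:22099216-22109630, plus strand), was at 35.6 CPM or more in 8 of those 9 libraries and at 9.73 CPM in the remaining one, the unligatured CCL19-KI 60% HFD replicate 2. The other 27 libraries were at 0 to 4.10 CPM. The actin and calponin levels were not in a fixed proportion, since the ratio of *Actg2* to *Cnn1* was 59.3 in that CCL19-KI 60% HFD replicate 2 and as low as 0.836 in another high library, the unligatured CCL19-KI ND replicate 2. *Cnn1* was at 139, 9.73 and 51.5 CPM in unligatured CCL19-KI 60% HFD mice and at 0.536, 0.417 and 0.538 CPM in their WT counterparts. Every CCL19-KI mouse of this pair of groups was above every WT mouse.

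*Pcp4* (ENSMUSG00000090223, chr16:96467606-96525793, plus strand), whose promoter is printed above, was at 0 in most libraries, and its 9 highest libraries were at 3.43 to 225 CPM against 0.489 CPM or less elsewhere. It differed from *Actg2* at both ends of this set. The unligatured CCL19-KI 60% HFD replicate 2, at 577 CPM of *Actg2*, had no *Pcp4* read, while the ligatured CCL19-KI ND replicate 3, at 1.65 CPM of *Actg2*, had 3.43 CPM of *Pcp4*. In unligatured 60% HFD mice *Pcp4* was at 84.2, 0 and 8.24 CPM in CCL19-KI and at 0 in all 3 WT libraries. Against the mean of the 3-read limits of the WT libraries the CCL19-KI mean was at least 136-fold higher, although 1 of the 3 CCL19-KI libraries was at 0. In unligatured 40% HFD mice the order was opposite, with 0, 46.5 and 0 CPM in WT and 0 in all 3 CCL19-KI libraries. Through 1 mouse, the WT mean was at least 81.5-fold above the mean of the CCL19-KI 3-read limits. *Pcp4* overlaps *Igsf5*, and 19.9% of its 31-base sequence words occur in other genes, against at most 1.39% for the other 8 members. *Igsf5* itself was at 0.108 to 23.2 CPM.

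*Acta2*, the vascular smooth muscle actin (ENSMUSG00000035783, chr19:34241090-34255590, minus strand), was present in every library, at 61.8 to 1458 CPM, with no gap like that of *Actg2*. The 2 highest libraries, at 1458 and 809 CPM, were ligatured CCL19-KI ND mice, and the third mouse of that group was at 80.7 CPM. Unligatured 60% HFD mice were at 589, 356 and 260 CPM (CCL19-KI) and 174, 148 and 357 CPM (WT), and these groups overlapped. Of the 9 libraries with high *Actg2*, 6 were among the 9 highest of *Acta2*, and in these 9 the ratio of *Actg2* to *Acta2* ran from 0.0976 to 1.62.

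*Tagln* (ENSMUSG00000032085, chr9:45929619-45936058, minus strand), *Des* (ENSMUSG00000026208, chr1:75360329-75368579, plus strand) and *Smtn* (ENSMUSG00000020439, chr11:3517523-3540612, minus strand) were graded rather than split. Their levels ran from 8.78 to 943 CPM, 8.29 to 347 CPM and 14.5 to 117 CPM. For all 3 the largest gap set apart the ligatured CCL19-KI ND replicates 1 and 2. Of the 9 libraries with high *Actg2*, 8 were among the 9 highest of *Tagln*, 9 of *Des* and 6 of *Smtn*.

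*Notch3*, the mural cell receptor (ENSMUSG00000038146, chr17:32120820-32166852, minus strand), did not separate these libraries, and only 3 of the 9 were among its 9 highest. In unligatured WT mice it was at 13.5, 23.9 and 9.30 CPM under ND, 2.40, 11.1 and 5.91 CPM under 40% HFD, and 9.99, 6.42 and 4.84 CPM under 60% HFD. In unligatured CCL19-KI mice it was at 7.03, 7.02 and 5.13 CPM under ND, 11.1, 15.7 and 12.4 CPM under 40% HFD, and 4.38, 13.7 and 55.6 CPM under 60% HFD. The value of 55.6 CPM, in the library labelled CCL19-KI 60% HFD replicate 3, stood alone above 23.9 CPM. Ligatured WT mice were at 3.86, 5.02 and 3.95 CPM (ND), 10.7, 6.64 and 7.46 CPM (40% HFD) and 5.25, 6.10 and 6.44 CPM (60% HFD). Ligatured CCL19-KI mice were at 12.7, 9.27 and 12.7 CPM (ND), 12.7, 9.62 and 11.6 CPM (40% HFD) and 15.3, 12.7 and 20.0 CPM (60% HFD).

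The 9 libraries with *Actg2* at 35.5 CPM or more were also the 9 with the highest summed epididymal markers, at 294 to 13236 CPM against at most 95.9 CPM in the other 27. *Crisp1*, a secretory protein of the epididymis named after its values were seen, was at 200 to 9541 CPM in the 9 and at 58.3 CPM or less in the 27. Other epididymal genes did not split the libraries this way. The ligatured WT 40% HFD replicate 1, among the 9, had 223 CPM of *Crisp1* and 0 of *Adam7*, *Lcn5* and *Gpx5*. The unligatured CCL19-KI ND replicate 3, among the 27, had 16.4, 13.8 and 11.1 CPM of *Adam7*, *Lcn5* and *Gpx5*. The order within the 9 differed: the ligatured CCL19-KI ND replicate 1, with the highest *Actg2* (730 CPM), had 2747 CPM of these markers and *Adam7*, another of them, at 0.0529 CPM, while the library labelled WT ND replicate 2 had 13236 CPM and *Adam7* at 2201 CPM. Of the 13 markers, 0 to 8 were at 0 in each of the 9 libraries and 0 to 12 in each of the 27. Markers of skeletal muscle (12 genes), which also uses *Des*, summed to 69.9 to 653 CPM in the 9 and 34.7 to 171 CPM in the 27. Endothelial markers (10 genes) summed to 135 to 363 CPM and 130 to 293 CPM. Beyond the fits given below, the part of these tissues in the levels of the 9 genes was not tested.

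**Figure D2:**
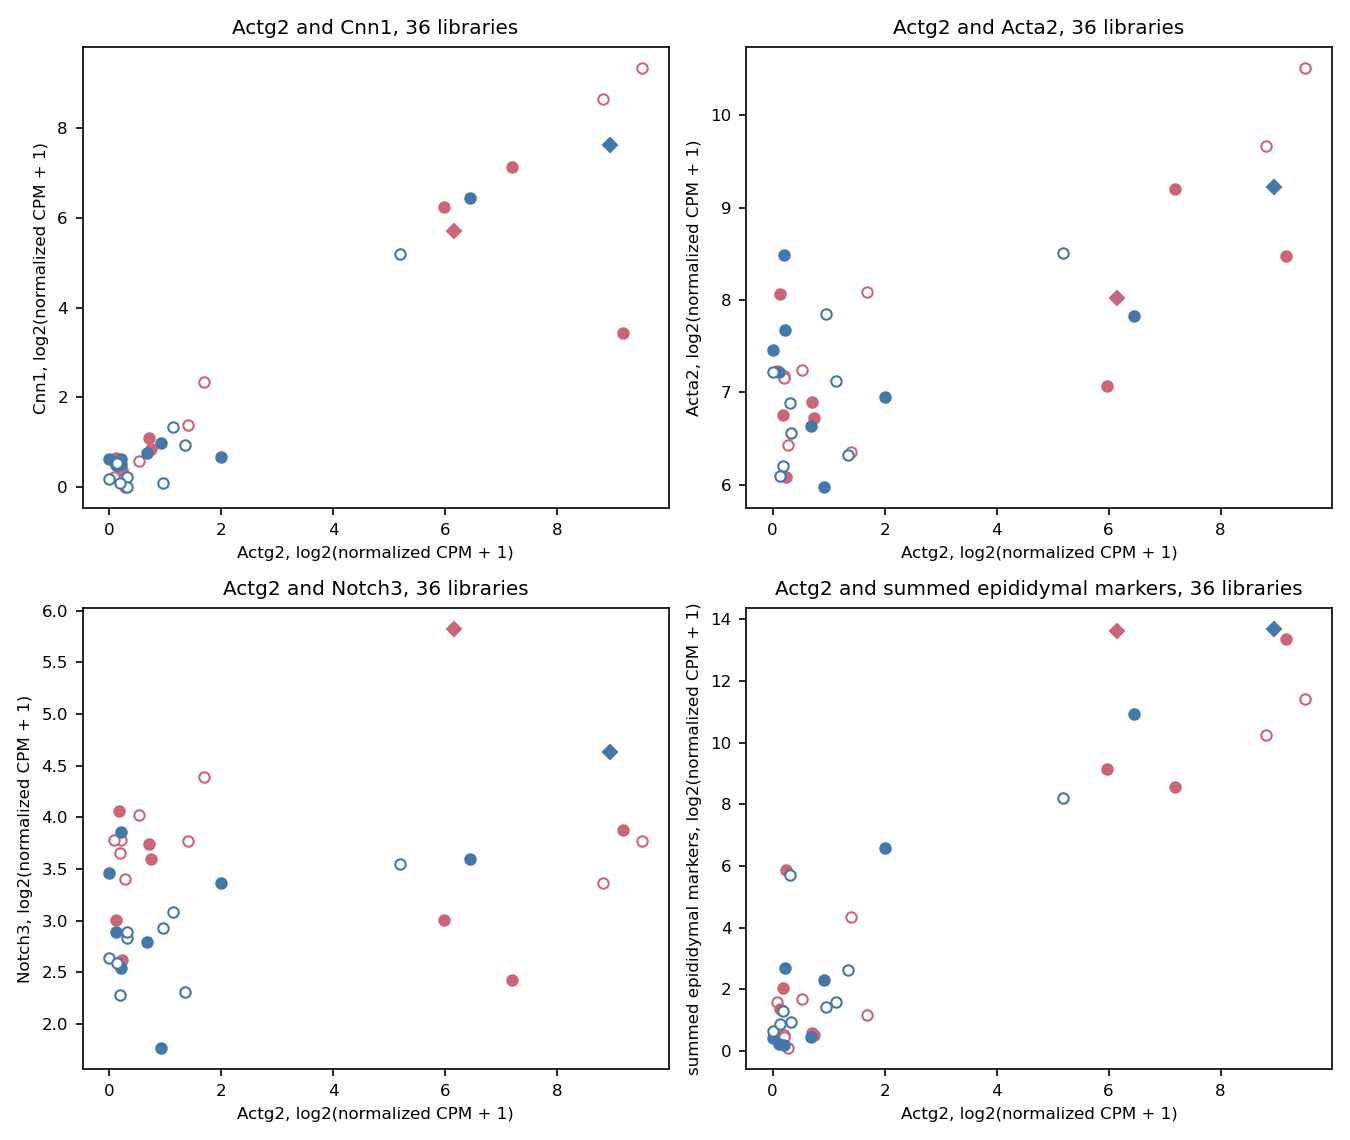
Levels of *Cnn1*, *Acta2*, *Notch3* and the summed epididymal markers (vertical axes) plotted against *Actg2* (horizontal axis), all as log2 (normalised CPM + 1), 1 point per library. Colours and symbols are as in the plot of levels by library; the 9 libraries at 35.5 CPM of *Actg2* or more lie apart on the right in each panel.

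Because the libraries fell into separate clusters, likeness between members was described within them. Among the 9 libraries, Pearson correlations of log2 levels over the 28 pairs that leave out *Notch3* were 0.21 to 0.98 (median 0.83), and over the 8 pairs with *Notch3* they were -0.30 to 0.12. Among the 27 libraries the same pairs gave -0.21 to 0.73 (median 0.26) and -0.12 to 0.37. Points share library preparation and depth, and *Actg2* followed *Cnn1* (r = 0.68) and *Myh11* (r = 0.63) among the 27 libraries but not *Acta2* (r = -0.06). Over all 36 libraries, with both clusters in view, the genes of 17758 were ranked by likeness to 4 members, leaving out the 9 members themselves. Of the members, *Myh11* (r = 0.95) and *Cnn1* (0.95) were nearest to *Actg2*, and *Cnn1* (0.96) to *Pcp4*. Outside the set, the genes most like *Actg2* were *Defb42* (r = 0.95), *Lmod1* (0.93), *Pgm5* (0.93), *Myl9* (0.92) and *Hoxd10* (0.92). *Lmod1* and *Myl9* belong to the contractile apparatus, and *Defb42* encodes a beta-defensin of the epididymis. Most like *Acta2* were *Pdlim7* (0.88), *Csrp1* (0.88), *Mylk* (0.85), *Myom1* (0.83) and *Myl9* (0.83). *Pcp4* was followed by *Mybpc1* (0.96), *Atcayos* (0.95), *Hoxa11* (0.95), *Hoxa11os* (0.95) and *Syndig1* (0.95). The list of *Notch3* shared no gene with these: *Arhgap27* (0.84), *Fam189a2* (0.82), *Sema3g* (0.81), *Ranbp3l* (0.80) and *Kcna5* (0.80).

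In unligatured mice on 60% HFD, which ask whether the adipocyte transgene goes with a different level of these genes when no periodontitis is present, all 9 members were higher in CCL19-KI than in WT, but 0 of 9 passed an adjusted p of 0.05 (limma). Over all 16923 genes 4.06% passed. At an unadjusted p under 0.05 there were 6 of 9 members, against 24.6% of all genes. The median log2 difference of the members was 2.68, that of all genes 0.03. *Actg2* differed most, by 7.40 on the log2 (CPM + 1) scale (SE 2.05, adjusted p = 0.0553), followed by *Cnn1* (4.84, SE 1.95, adjusted p = 0.144) and *Myh11* (4.36, SE 1.52, adjusted p = 0.0996). *Smtn* differed by 1.15 (SE 0.34, adjusted p = 0.0618), *Des* by 2.22 (SE 0.78, adjusted p = 0.1002) and *Tagln* by 2.68 (SE 1.08, adjusted p = 0.145). The smallest differences were those of *Acta2* (0.85, SE 0.61, adjusted p = 0.417) and *Notch3* (1.08, SE 0.65, adjusted p = 0.319), and *Pcp4* differed by 3.21 (SE 1.90, adjusted p = 0.310). For 6 members, *Actg2*, *Cnn1*, *Myh11*, *Tagln*, *Des* and *Smtn*, all 3 CCL19-KI values lay above all 3 WT values, as for 13.8% of all genes. With 3 mice against 3 an exact permutation test cannot go below p = 0.1.

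**Figure D3:**
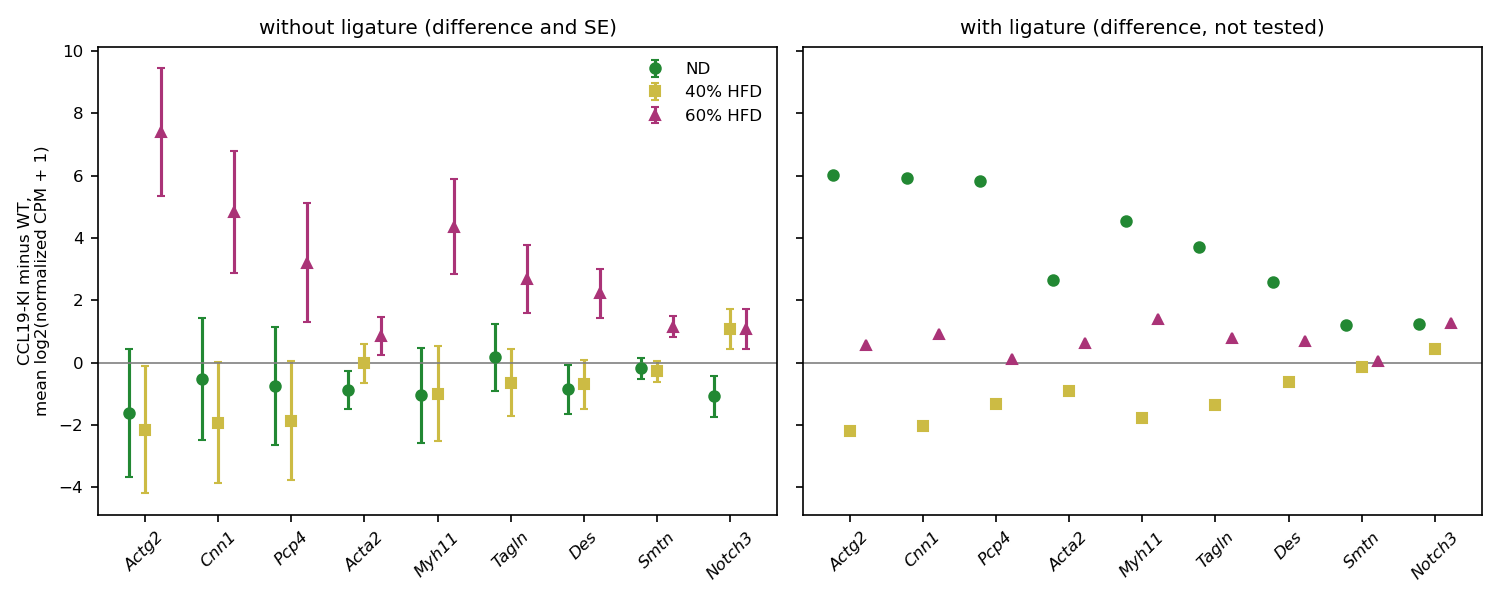
Difference between CCL19-KI and WT in the mean log2 (normalised CPM + 1) of each member, for each diet, without and with LIP. Points without LIP carry the standard error of the limma fit as bars and those with LIP are shown without a test; the unligatured 60% HFD differences run from 0.85 to 7.40, and the ligatured ND differences from 1.22 to 6.02.

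These calls depended on the libraries and the tool. DESeq2 on the recovered reads called 7 of 9 (all but *Acta2* and *Notch3*, 9.37% of all genes higher), while edgeR called 0. Without the 2 libraries whose transcripts went against the label, *Actg2* was higher by 8.07 (adjusted p = 0.0343, 1 of 9 called against 3.82% of all genes), and the *Notch3* difference was 0.19 (adjusted p = 0.824). The 2 libraries with the most epididymal RNA were taken by the mean log2 level of the 13 markers, and not by their sum. They were WT ND replicate 2 (8.99) and CCL19-KI 60% HFD replicate 2 (6.97), and not CCL19-KI 60% HFD replicate 3, which had 9541 CPM of *Crisp1*. Leaving out these 2, *Actg2*, *Des*, *Myh11* and *Smtn* were higher at an adjusted p of 0.05, against 5.36% of all genes. With the mean log2 level of the markers as a covariate 0 of 9 passed and the lowest adjusted p was 0.262. The shares of all genes in the edgeR and covariate fits are not given, so nothing about the members is read from those counts. All 8 tested epididymal markers were higher in this contrast, by a median of 4.33, and 0 passed. Of these, *Cst8* passed without the 2 libraries against their labels (6.59, adjusted p = 0.00602), and *Crisp1* (10.66, adjusted p = 0.0422) and *Serpina1f* (8.71, adjusted p = 0.0495) passed without the 2 libraries with most epididymal RNA.

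Under ND without ligature the order was mostly opposite, with 8 of 9 members lower in CCL19-KI. By limma 0 of 9 passed an adjusted p of 0.05, against 7.28% of all genes. No member had an unadjusted p under 0.05 by limma, against 27.1% of all genes. By edgeR and DESeq2 0 of 9 passed as well, but the shares of all genes are not given, so nothing is read from those counts. Differences ran from -1.61 for *Actg2* (SE 2.05, adjusted p = 0.641) to 0.17 for *Tagln* (SE 1.08, adjusted p = 0.934), with a median of -0.86 against -0.09 over all genes. This order rested on the library labelled WT ND replicate 2: without both libraries against their labels 7 of 9 members were higher in CCL19-KI, *Actg2* by 1.01 (adjusted p = 0.728). *Notch3* kept its direction, at -1.08 (SE 0.65, adjusted p = 0.301) with all 18 libraries and -0.74 without the 2. Its 3 CCL19-KI values, 5.13 to 7.03 CPM, all lay below the 3 WT values, 9.30 to 23.9 CPM, as for 14.6% of all genes.

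Under 40% HFD without ligature, 8 of 9 members were again lower in CCL19-KI. This order rested on 1 mouse: without WT 40% HFD replicate 2, which had 86.2 CPM of *Actg2*, 6 were higher, 2 lower and *Pcp4* at 0, and the median was 0.15. By limma 0 of 9 had an adjusted p under 0.05 or an unadjusted p under 0.05 (0.0% and 4.27% of all genes), edgeR called 0, and DESeq2 called *Pcp4* (0.219% of all genes), which had reads in 1 WT library only. *Actg2* was at -2.15 (SE 2.05, adjusted p = 0.953) and the median of the members at -0.70. *Notch3* was higher by 1.09 (SE 0.65, adjusted p = 0.953), with all 3 CCL19-KI values (11.12 to 15.7 CPM) above the 3 WT values (2.40 to 11.07 CPM), as for 7.37% of all genes. Averaged over the diets, differences ran from -0.02 (*Acta2*) to 1.21 (*Actg2*, SE 1.18, adjusted p = 0.665). Of these averaged differences 0 of 9 passed by limma, edgeR or DESeq2, none had an unadjusted p under 0.05 (15.3% of all genes), and 0.0118% of all genes passed.

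Whether the genotype difference itself depended on diet was tested as an interaction in the unligatured mice. Between 60% HFD and ND all 9 members had a larger CCL19-KI difference under 60% HFD, with a median of 3.08 against 0.14 over all genes. By limma 0 of 9 passed, against 8.61% of all genes, and 5 of 9 had an unadjusted p under 0.05, against 28.8%. *Actg2* came nearest (9.00, SE 2.89, adjusted p = 0.0649), and *Notch3* was at 2.15 (SE 0.92, adjusted p = 0.139). edgeR called *Actg2* alone (15.4% of all genes), and DESeq2 called 8 of 9 (21.2%). Without the 2 libraries against their labels *Actg2* was at 7.07 (adjusted p = 0.112) and *Notch3* at 0.92. Between 40% HFD and ND, *Notch3* was the one member of 9 with an unadjusted p under 0.05 (2.16, SE 0.92, adjusted p = 0.251), against 17.2% of all genes. Of the 9, 0 passed by limma (0.0236% of all genes) or edgeR, and DESeq2 called *Pcp4* (6.73%).

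Diet by itself, averaged over the genotypes in unligatured mice, gave no member past an adjusted p of 0.05 by limma or edgeR. All 9 were lower under 40% HFD than under ND (median -0.73), 0 had an unadjusted p under 0.05 (7.41% of all genes), and 0.756% of all genes passed, with *Pcp4* called by DESeq2 (3.53%). The direction turned without the 2 libraries against their labels or without the 2 with most epididymal RNA, each of which left 7 higher and 2 lower, and the epididymal covariate left 5 higher and 4 lower. Between 60% HFD and ND 5 were higher and 4 lower, none with an unadjusted p under 0.05 (4.29% of all genes), and 0.0118% of all genes passed. The library labelled WT ND replicate 2 set this split, since 9 were higher and 0 lower without it, and 8 were higher and 1 lower without both libraries against their labels. Between 60% and 40% HFD, *Acta2* was higher by 1.34 (SE 0.43, unadjusted p = 0.00768, adjusted p = 0.539), the one member with an unadjusted p under 0.05 (8.66% of all genes), and 0.0177% of all genes passed. The *Acta2* difference was 1.48 (adjusted p = 0.420) without the 2 libraries against their labels. *Acta2* levels were 148 to 589 CPM in the 6 mice on 60% HFD and 61.8 to 226 CPM in the 6 on 40% HFD.

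In ligatured mice, the contrast that chose the set, all 9 members were higher in CCL19-KI than in WT under ND, by 1.22 (*Smtn*) to 6.02 (*Actg2*) on the log2 scale. *Cnn1* was higher by 5.92, with 645, 399 and 1.59 CPM in CCL19-KI and 0.0690, 0.456 and 0.929 CPM in WT. *Notch3* was higher by 1.24. For 6 members the groups did not overlap, as for 8.55% of all genes, and since this contrast chose the set nothing is read from that count. The third CCL19-KI mouse was low: without replicate 1 or 2 of that group the *Actg2* difference was as small as 4.55, and without the third mouse it was 8.61. Under 40% HFD 8 members were lower in CCL19-KI, *Actg2* by -2.21, and *Notch3* was higher by 0.43. Without WT replicate 1 (35.5 CPM of *Actg2*), 6 were lower and the *Actg2* difference was -0.83. For *Actg2* and *Tagln* all CCL19-KI values were below all WT values there, as for 5.58% of all genes. Under 60% HFD all 9 were higher by 0.04 to 1.40, *Actg2* by 0.55 (0.09 without CCL19-KI replicate 3) and *Notch3* by 1.28, and 6 did not overlap, as for 7.28% of all genes.

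Set beside unligatured mice of the same genotype and diet, and again as a description, ligatured CCL19-KI mice on ND had all 9 members higher, by 0.76 (*Notch3*) to 4.46 (*Actg2*). On 60% HFD ligatured CCL19-KI mice had 8 of 9 lower, *Actg2* by -6.74, and *Notch3* differed by 0.02. Without the library labelled CCL19-KI 60% HFD replicate 3, *Actg2* was at -7.41 and *Notch3* at 0.91. In WT mice on ND all 9 were lower with ligature, by -3.16 (*Actg2*) to -0.07 (*Smtn*), and without the library labelled WT ND replicate 2 *Actg2* was at -0.55 and 4 of 9 members were higher. In the other 3 pairs of groups the median difference of the members was -0.27 (CCL19-KI 40% HFD), -0.14 (WT 40% HFD) and -0.18 (WT 60% HFD). The WT 40% HFD median was 1.34 without the unligatured replicate 2, 0.48 and 0.28 without the ligatured replicates 2 and 3. It was -0.76 without the ligatured replicate 1, and -0.67 and -0.58 without the unligatured replicates 1 and 3.

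Other genes of the contractile apparatus (17 genes, such as *Myl9*, *Mylk*, *Tpm2* and *Lmod1*) leaned the same way as the members in unligatured mice. Under 60% HFD 15 of 17 were higher in CCL19-KI, with a median of 0.91, and 0 passed. Without the 2 libraries with most epididymal RNA 6 of 16 tested passed. The abundant *Flna*, filamin A (0.10, adjusted p = 0.886), and *Synpo2*, synaptopodin 2 (-0.35, adjusted p = 0.749), did not share the size of the difference. Under ND 15 of 17 were lower (median -0.66), and *Flna* fell by 1.15 (SE 0.32, adjusted p = 0.0471), with 730, 297 and 278 CPM in CCL19-KI and 809, 873 and 931 CPM in WT. Without the 2 libraries against their labels its adjusted p was 0.0698.

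Of the pericyte and mural cell genes (12 of 13 tested), 8 were lower in CCL19-KI on ND, 2 on 40% HFD and 8 on 60% HFD. *Cspg4*, the pericyte proteoglycan NG2, was lower in CCL19-KI mice on ND, at 10.9, 2.81 and 3.66 CPM against 40.6, 37.2 and 45.3 CPM in WT (-2.82, SE 0.55, adjusted p = 0.0216). *Mcam*, the adhesion molecule CD146, was lower as well, at 159, 59.4 and 61.8 CPM against 340, 334 and 436 CPM (-2.12, SE 0.51, adjusted p = 0.0301). Both calls held without the 2 libraries against their labels (-2.88, adjusted p = 0.0144, and -2.19, adjusted p = 0.0320). Without the 2 libraries with most epididymal RNA *Cspg4* was still called (adjusted p = 0.0396) and *Mcam* was not. In ligatured ND mice, which were not tested, the genotypes overlapped for both genes. *Cspg4* was there at 18.5, 15.2 and 18.1 CPM in CCL19-KI and 19.2, 16.6 and 19.7 CPM in WT. *Mcam* was there at 186, 135 and 187 CPM in CCL19-KI and 154, 111 and 200 CPM in WT. *Vtn*, vitronectin, rose in CCL19-KI on ND by 4.63 (adjusted p = 0.0376) and fell on 60% HFD by 4.96 (adjusted p = 0.0426), and its interaction was -9.59 (adjusted p = 0.00442). It is also abundant in hepatocytes, and the source of *Vtn* was not tested. Hepatocyte markers were higher in 9 of 9 on ND, all called, and lower in 9 of 9 on 60% HFD, with 6 called. Those 6 were still lower, by 3.96 to 4.43, without the 2 libraries against their labels, but 0 were called. Without the 2 libraries with most epididymal RNA all 9 were called on 60% HFD. The interaction was negative and called in 9 of 9. Without the 2 libraries against their labels *Vtn* had an adjusted p of 0.0529 on ND and 0.0835 on 60% HFD. Without the 2 with most epididymal RNA it was called on 60% HFD (-5.57, adjusted p = 0.0340) and not on ND. The list's median was -0.17 on ND, 0.58 on 40% HFD and -0.37 on 60% HFD.

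Genes of the Notch pathway other than *Notch3* (13 genes) had 0 calls in the genotype contrasts of single diets, with medians of -0.27 on ND, 0.19 on 40% HFD and 0.61 on 60% HFD. In the interaction between 60% HFD and ND all 13 were positive (median 0.91) and the ligand gene *Jag2* passed (3.35, SE 0.86, adjusted p = 0.0284). *Jag2* was at 2.90, 8.00 and 30.9 CPM in CCL19-KI 60% HFD mice and at 1.34, 1.17 and 1.15 CPM in WT. The value of 30.9 CPM came from the library labelled CCL19-KI 60% HFD replicate 3, and without the 2 libraries against their labels the interaction was 1.92 (adjusted p = 0.0434) and the difference on 60% HFD 1.42 (adjusted p = 0.0395), where it had been 2.23 (adjusted p = 0.0527). Transcription factors of smooth muscle (10 genes) had medians of -0.01, -0.12 and 0.14 on ND, 40% and 60% HFD. *Foxf1* passed on ND (0.98, SE 0.27, adjusted p = 0.0437) at levels of 0.566, 1.35 and 2.65 CPM against 0, 0.334 and 0.300 CPM. It was called without the 2 libraries against their labels (1.06, adjusted p = 0.0452) but not without the 2 with most epididymal RNA. *Myocd*, the coactivator of serum response factor, did not pass on 60% HFD (1.39, SE 0.62, adjusted p = 0.184). It did so without the 2 libraries with most epididymal RNA (1.74, adjusted p = 0.0300).

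Markers of other cell types stood as follows in the unligatured genotype contrasts. On ND the adipocyte genes *Pparg*, *Lipe* and *Plin1* fell in CCL19-KI (3 of 8), and *Myl1* of the skeletal muscle list (1 of 8 tested) and *Tubb3* of the neuron list (1 of 4 tested) fell too. *Kdr* rose (1 of 10 endothelial genes). All 6 of these calls held without the 2 libraries against their labels. Without the 2 libraries with most epididymal RNA only *Pparg* (adjusted p = 0.0381) and *Tubb3* (adjusted p = 0.0475) were still called. Fibroblast (8 genes), mesothelium (6), Schwann cell (3 tested) and epididymal (8 tested) lists had 0 calls on ND by limma. On 40% HFD no list had a call, and on 60% HFD the calls were those of the hepatocyte list and *Vtn*. Adipocyte genes were lower in 8 of 8 under 60% HFD (median -0.73) and mesothelial genes higher in 6 of 6 under ND (median 0.99), with 0 calls in both.

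**Figure D4:**
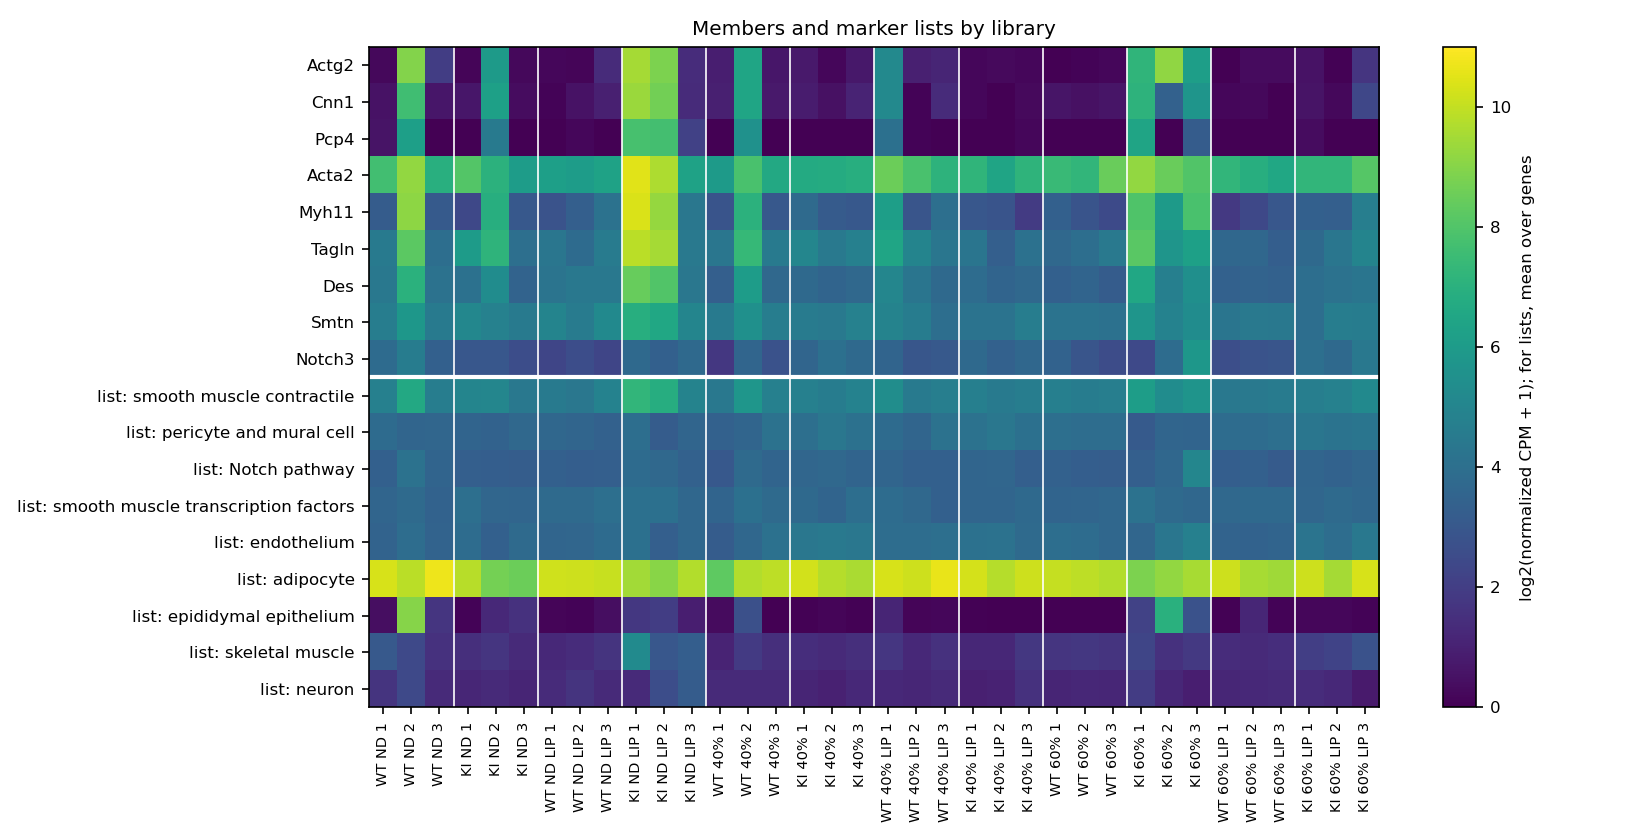
Levels of the 9 members and of marker lists in all 36 libraries (columns, by group and replicate), coloured by log2 (normalised CPM + 1), which for a list is the mean over its genes. The 9 libraries with high *Actg2* are all above the other 27 in the rows of *Cnn1*, *Myh11* and *Des*. They overlap with the 27 in those of *Pcp4*, *Acta2*, *Tagln* and *Smtn*, and do not stand out in those of *Notch3* or the pericyte list. The epididymal row shows the mean over genes, whereas the text gives the sum.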

How the data were processed

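RNA from the eWAT of each mouse was sequenced after ribosomal RNA depletion with a directional kit. Per the study's methods and the submitters' notes, the authors trimmed reads with Trimmomatic 0.38, mapped them with Bowtie2 within RSEM 1.3.0 and normalised gene-level counts with edgeR. The deposited values are a signal, normalised read counts per gene scaled to library size (CPM), 1 column per mouse. The methods name mm10 and the notes GRCm39, and gene positions printed here are from GENCODE on GRCm38. All values were whole multiples of 1 read (tolerance 0.01), so reads were recovered for count tests and depth.

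Samples were grouped by genotype, diet and ligature as labelled. log2 (CPM + 1) was fitted with limma 3.58.1 (R 4.3.3, mean-variance trend) over the 18 unligatured mice, with genes at 1 CPM or more in at least 3 libraries and Benjamini-Hochberg adjustment over all 16923 genes. DESeq2 1.42.0 and edgeR 4.0.16 quasi-likelihood tests on recovered reads, other pseudocounts, filters, scalings, all 36 mice, a replicate block and leaving out each library were alternatives. Scripts were tested on simulated data. The labels do not say whether mice of a group shared a cage or litter, so p-values measure the spread between these mice.

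The members, marker lists and tests were chosen with earlier results of these data known. All 9 members were named, together with called genes of the contractile, mural, Notch and transcription factor lists (otherwise the 2 of highest mean). Named as well were the 5 genes outside the set most correlated with *Actg2*, *Acta2*, *Notch3* and *Pcp4*. The list names printed here are contractile, pericyte and mural, Notch, transcription factor, epididymal, skeletal muscle, endothelial, fibroblast, adipocyte, mesothelial, neuron, Schwann cell and hepatocyte. Promoters and coordinates of promoters are from RefSeq (GRCm38.p6). Intervals and limits from counts cover counting error only.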

Additional observations from a re-analysis of the deposited data

Results flagged for a closer look

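For 4 pairs of comparisons the 3 CCL19-KI and 3 WT values of a member did not overlap and lay in opposite orders. The contrasts in ligatured mice chose the set, so nothing is read from non-overlap there. In each of the single contrasts below, 5.58% to 14.6% of all genes did not overlap in the same direction. The share of all genes with opposite orders in 2 contrasts was not counted. *Actg2* was higher in ligatured CCL19-KI mice on ND (6.02 on the log2 scale) and lower in those on 40% HFD (-2.21, and -0.83 without WT replicate 1), and this difference between diets was not tested. *Tagln* was lower in ligatured CCL19-KI mice on 40% HFD (-1.36) and higher in those on 60% HFD (0.80), which was not tested either. *Notch3* on ND was lower in unligatured CCL19-KI mice (-1.08) and higher in ligatured ones (1.24), a difference that was not tested. *Notch3* in unligatured mice was lower in CCL19-KI on ND (-1.08) and higher on 40% HFD (1.09), and here the interaction was 2.16 (limma, adjusted p = 0.251). Groups of 3 were not tested for single libraries that stand apart.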

How the results depend on the processing

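Over 31 member differences in unligatured mice, 382 of 403 values kept their direction under 13 alternatives, and 538 of 558 when 1 library was left out. Many of these values could not change. The replicate block, the filters and the fit of all 36 mice return the same limma difference. Leaving out a library of another diet leaves a genotype difference within 1 diet as it was. These totals are therefore no measure of robustness. The alternatives with an epididymal covariate, or without the 2 libraries against their labels or with most epididymal RNA, were chosen after seeing the data, as was leaving out libraries from the ligature differences. In the ND contrast, leaving out either pair of libraries gave *Actg2* 1.01, *Cnn1* 1.82, *Pcp4* 1.23, *Myh11* 0.95, *Des* 0.055 and *Smtn* 0.23, all above 0, and the covariate gave *Actg2* 1.07, *Cnn1* 1.18, *Pcp4* 0.40, *Myh11* 0.47 and *Smtn* 0.058. *Tagln* turned to -0.54 with edgeR and -0.54 with DESeq2. In the 40% HFD contrast *Acta2* turned to 0.070 with quantile normalization and 0.13 with the covariate. Leaving out each library in turn, ND differences ran from -3.54 to 1.01 (*Actg2*), -2.43 to 1.82 (*Cnn1*), -2.26 to 1.23 (*Pcp4*), -2.44 to 0.95 (*Myh11*), -0.62 to 1.505 (*Tagln*), -1.38 to 0.055 (*Des*) and -0.42 to 0.23 (*Smtn*), and 40% HFD differences from -2.79 to 0 (*Pcp4*), -0.44 to 0.49 (*Acta2*), -1.72 to 0.38 (*Myh11*), -1.17 to 0.35 (*Tagln*), -1.22 to 0.15 (*Des*) and -0.47 to 0.039 (*Smtn*). For the 60% HFD contrast the number of members called was 1 with a pseudocount of 0.1, 1 with the replicate block, 7 with DESeq2, 4 with all 36 mice, 4 and 1 without the 2 libraries with most epididymal RNA or against their labels, and 0 to 3 when 1 library was left out (3 without WT ND replicate 2, 2 without WT 40% HFD replicate 2, 1 without CCL19-KI ND replicate 1, 1 without CCL19-KI 60% HFD replicate 2). For the interaction of 60% HFD with ND it was 1 with the pseudocount, 1 with the replicate block, 1 with edgeR, 8 with DESeq2, 3 with all 36 mice and 0 to 1 when 1 library was left out (1 without WT ND replicate 1, CCL19-KI ND replicate 2, WT 40% HFD replicate 2 or CCL19-KI 60% HFD replicate 1). DESeq2 called 1, *Pcp4*, in the 40% HFD genotype contrast, in 40% HFD against ND and in their interaction. Over all genes, the pseudocount, the block and the fit of all 36 mice called 6.39%, 2.88% and 16.8% on 60% HFD and 10.9%, 8.08% and 21.8% in the interaction. Shares of all genes are not given for the fits with 1 library left out or for the covariate. They are also not given where edgeR or DESeq2 called no member. Nothing about the members is read from those counts. The 40% HFD turns came from leaving out WT 40% HFD replicate 2, and for *Acta2* also CCL19-KI 40% HFD replicate 1 (0.012). The cause of these changes was not tested. Genes called over the whole table ranged from 0 to 2998 on 60% HFD (687 as reported) and from 5 to 3355 on ND (1232). Same-numbered libraries of different groups correlated between -0.61 and 0.72 in their deviations from group means. Differently numbered libraries were not compared, so this range cannot show whether the numbers pair mice. Under the replicate block *Actg2* had an adjusted p of 0.0454 on 60% HFD and 0.0238 in the interaction, with no other member called.

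Each group held 3 mice, and 2 of the 18 unligatured libraries had knock-in transcripts against their label. *Actg2*, *Cnn1* and *Pcp4* were near the limit of 3 reads in most libraries, where a log2 (CPM + 1) difference understates a fold change. The 9 libraries with high *Actg2* also had the highest summed epididymal markers, and the samples hold no measure of cell number. The contrast that chose the genes, in ligatured mice, had no test.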

Other observations

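The library labelled CCL19-KI 60% HFD replicate 3, which had the highest *Notch3* level (55.6 CPM), also had the highest levels of 3 other genes of the Notch list, which were picked after their values were seen. *Heyl*, a target gene of Notch receptors, was at 137 CPM in it and at 0.976 to 15.8 CPM in the other 35 libraries. *Hes1*, another target gene, was at 58.9 CPM against 0.877 to 14.9 CPM, and the ligand gene *Jag2* was at 30.9 CPM against 0.505 to 10.9 CPM. In the other 2 libraries of that group, *Heyl* was at 3.64 and 2.60 CPM and *Hes1* at 6.19 and 6.71 CPM. The library labelled WT ND replicate 2, the other one whose knock-in transcripts went against the label, was second of 36 for *Notch3* (23.9 CPM), *Heyl* (15.8 CPM), *Hes1* (14.9 CPM) and *Jag2* (10.9 CPM).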
